A study of Mus musculus with 8 samples.

Results

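The genes described here are 50 genes of ribosome biogenesis and the nucleolus, read by symbol from a fixed list of genes with textbook roles in making ribosomes. All 50 were found, each as a single entry among 48500 genes, and all 50 passed the filter on low values, a level of 1 FPKM or more in 4 or more libraries of 8 (FPKM counts fragments per kilobase of transcript, scaled to library depth). They were read in RNA-seq of leukaemia stem cells taken from bone marrow, in a mouse model in which HOXA9 and MEIS1 drive acute myeloid leukaemia. The comparison was between 4 libraries from Nynrin+/+ mice (wild type, WT1 to WT4) and 4 from Nynrin-/- mice (Nynrin-KO, KO1 to KO4), and asked how the leukaemia stem cell transcriptome differs without Nynrin. Each library was made from about 10000 cells sorted as GFP+ c-Kit+ Gr-1-, so both groups carry the same leukaemia drivers and differ by label in genotype alone. The sources used here do not give animal age, the deleted part of Nynrin or whether each library came from its own mouse, so p-values measure only the spread between these libraries.

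Ribosomes are assembled in the nucleolus. RNA polymerase I transcribes the precursor of the ribosomal RNAs, small nucleolar ribonucleoproteins (snoRNPs) modify it, and separate sets of assembly factors cut, fold and export the small and the large subunit. The process takes a large part of the resources of a dividing cell, and many of its genes are known targets of the transcription factor MYC. NPM1, an abundant nucleolar protein, is a frequent site of mutation in human acute myeloid leukaemia.

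The libraries differed in ways that touch every result below. Recovered depth was 1827000 to 33088000 reads, lowest in KO3 and WT3 (1827000 and 1963000 reads), where the median member had 26 and 57 reads against 1640.5 in WT1. Nynrin was at 0.008 to 0.286 FPKM in WT and 0.0982 to 0.437 FPKM in Nynrin-KO, too low to be tested or to check the labels. Xist was at 15.2 to 26.5 FPKM in WT and at 12.7, 0.0242, 0.366 and 0.0175 FPKM in KO1 to KO4. Ddx3y, on the Y chromosome, stood at 0.111 FPKM or less in WT, at 2.18 FPKM in KO1 and at 18.2 to 20.7 FPKM in KO2 to KO4, so KO1 held RNA of both kinds and the effect of sex cannot be told apart from that of genotype. The cell type label was checked on 12 stem and progenitor markers, and of the 11 tested 3 (Cd34, Flt3 and Gata2) were lower and 2 (Hoxa9 and Meis1) higher in Nynrin-KO. Hoxa9 and Meis1 are also the drivers of the model, so their rise is no check of the cell type label. The cause of that rise was not tested. Kit, the antigen of the sort, was present at 2.63 to 6.40 FPKM in WT and 2.92 to 4.91 FPKM in Nynrin-KO. The repeat-like gene model Gm10800 was at 6076, 3349 and 3990 FPKM in WT1, KO2 and KO4 and at 28612 to 142258 FPKM in the other libraries.

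Most of the 50 genes were lower in the Nynrin-KO libraries, and none was higher. By limma on log2(FPKM + 1), 37 of the 50 fell at an adjusted p under 0.05 and 13 did not pass, beside 13.8% of all 12524 genes tested that fell. The median log2 change of the 50 was -1.10, beside -0.03 over all genes tested. In the 37 genes that fell the Nynrin-KO mean was 16.7% to 61% of the WT mean, with a median of 37.4%. In 37 genes, 36 of them called, every Nynrin-KO library lay below every WT library, as for 15% of all genes tested. Added up, the 50 genes reached 2302, 1425, 1159 and 1214 FPKM in WT1 to WT4 and 405, 497, 353 and 515 FPKM in KO1 to KO4. FPKM values are per length, here that of the longest annotated transcript, which was 9507 bases for Nop58, 8202 for Ncl and 3627 for Nop56. Where the RNA present is shorter than that, its level is understated, so levels and ranks by level compare only roughly between genes. In bulk RNA fewer cells of a type and less RNA per cell cannot be told apart.

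**Figure D1:**
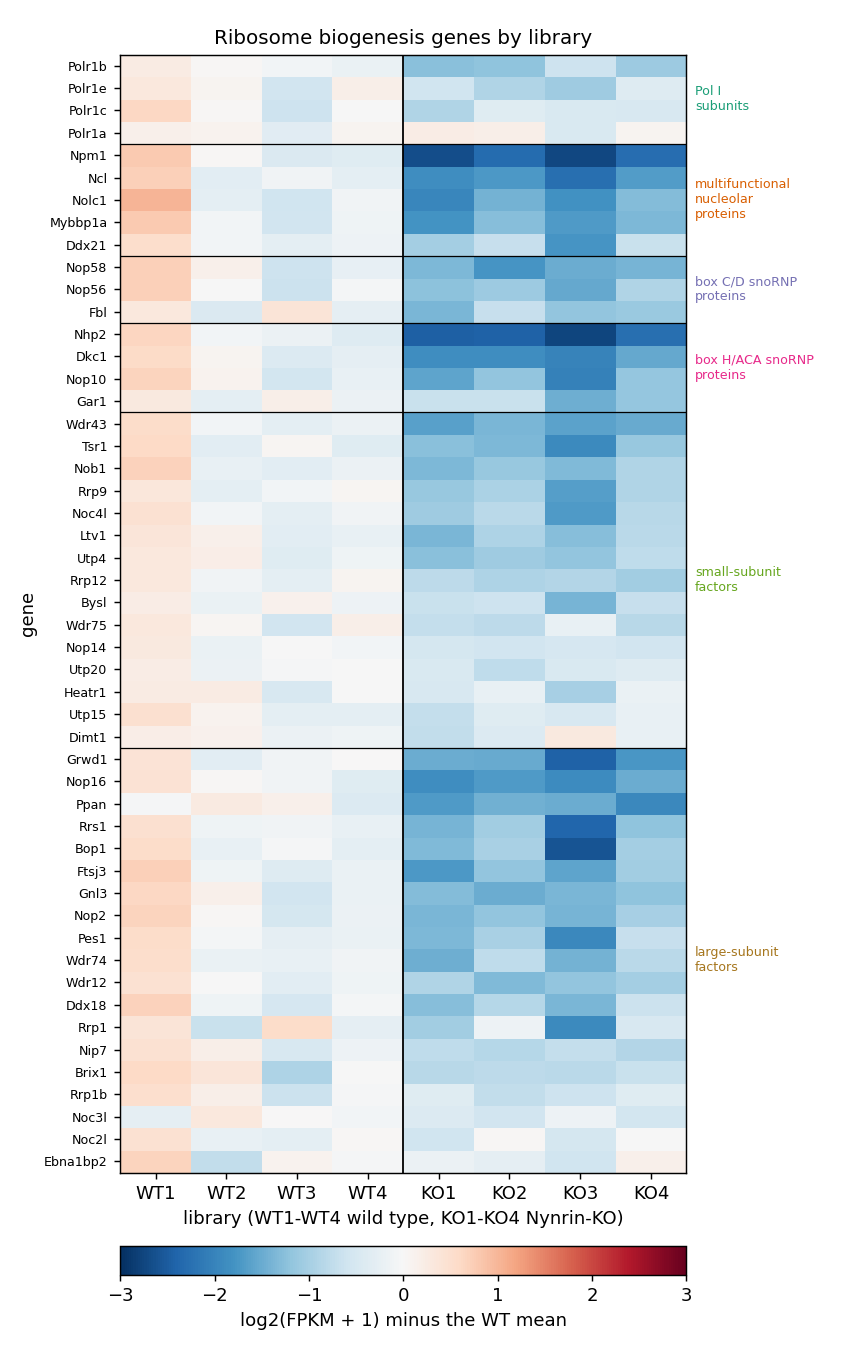
Level of each of the 50 genes (vertical axis, grouped by role) in each of the 8 libraries (horizontal axis), as log2(FPKM + 1) minus the mean of the 4 WT libraries. The KO1 to KO4 columns are blue for nearly all genes, Polr1a at the top is near 0 in both groups, and WT1 is the highest WT library in 46 of the 50 genes.

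Markers of other cells moved with the groups. Of 17 mature neutrophil markers 11 rose and none fell, and they added up to 3072, 81312, 55785 and 105076 FPKM in WT1 to WT4 and 284955, 125693, 215122 and 194481 FPKM in KO1 to KO4. The sort gate was Gr-1-, which selects against mature neutrophils. The library lowest in these markers, WT1, was the highest in the summed level of the 50 genes, and also the deepest. That order was not kept throughout: among WT2 to WT4, WT3 was the lowest in both sums, and KO4 was above KO2 in both. Neutrophil markers and Gm10800 together took 0.654% to 13.4% of reads in WT and 9.02% to 23.1% in Nynrin-KO. When the values were scaled to the reads outside those genes, 36 of the 50 still fell, beside 12.5% of all genes. On that scale the median change of all genes was 0.08 and that of the 50 was -0.98, and over all genes 1560 fell and 2379 (19%) rose, in place of 1734 and 1754 (14%). With the neutrophil level as a covariate, limma called 0 of the 50 and 0 of all genes, with 18 of the 50 at an unadjusted p under 0.05, 44 of 50 negative and a median of -0.68. The summed level of these markers did not overlap between the groups, and their part in the fall was otherwise not tested. Summed levels of the monocyte and macrophage, lymphoid, erythroid, megakaryocyte and mast cell lists were 1952 to 2994, 22.6 to 27.9, 11.1 to 15, 0.585 to 4.18 and 10.3 to 14.3 FPKM in WT. In Nynrin-KO they were 1950 to 4391, 29.3 to 56, 15.2 to 59.9, 3.93 to 7.58 and 48.4 to 118 FPKM. In these lists 6 of 14, 2 of 4, 3 of 4, 1 of 2 and 3 of 6 tested genes rose, and 1 gene each of the monocyte and mast cell lists fell. In the lymphoid list 4 of 14 genes passed the filter, and the T cell genes Cd8a and Trac were at most 0.545 FPKM in every library. These genes do not stand for the list, whose summed level was higher in every Nynrin-KO library than in any WT library. The part of these cells in the fall of the 50 genes was not tested.

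**Figure D2:**
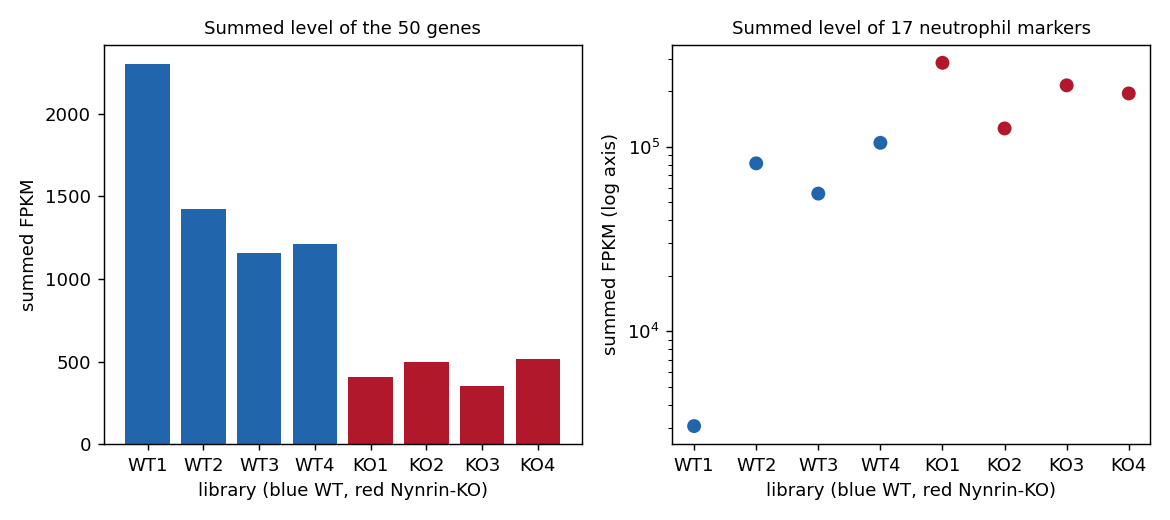
Summed FPKM of the 50 genes (left, bars from 0) and of 17 mature neutrophil markers (right, log axis) in each library, blue for WT and red for Nynrin-KO. The 50 genes sum to 1159 FPKM or more in WT and to 515 FPKM or less in Nynrin-KO, while the neutrophil markers are lowest in WT1 and highest in KO1.

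The 4 subunits of RNA polymerase I did not move as one. Polr1b, the second largest subunit of the enzyme (mm10 chromosome 2, 129100995 to 129126594), was at 10.7, 9.08, 8.41 and 7.60 FPKM in WT1 to WT4 and at 3.11, 3.29, 5.48 and 3.63 FPKM in KO1 to KO4. The groups did not overlap, and the gene fell (log2 change -1.04, SE 0.19, limma adjusted p = 0.0051). Polr1e, a subunit of the initiation-competent enzyme, was at 5.93, 4.83, 2.73 and 5.28 FPKM in WT and at 2.68, 1.95, 1.65 and 3.22 FPKM in Nynrin-KO. KO4 lay above WT3, and the fall passed narrowly (log2 change -0.74, SE 0.24, adjusted p = 0.0476) and only in 8 of 23 alternatives. Leaving out any 1 library other than WT3 ended the call (adjusted p = 0.0513 to 0.122). Polr1c, which RNA polymerase I shares with RNA polymerase III, was at 18.8, 12.2, 7.37 and 11.7 FPKM in WT and 5.86, 8.98, 8.33 and 8.25 FPKM in Nynrin-KO. WT3 lay within the Nynrin-KO range, and the difference did not pass (log2 change -0.56, 95% interval -1.15 to 0.03, adjusted p = 0.143). Polr1a, the catalytic subunit (chromosome 6, 71909053 to 71984935), was at 2.97, 2.84, 1.82 and 2.76 FPKM in WT and 3.15, 3.01, 1.60 and 2.78 FPKM in Nynrin-KO. Its groups overlapped throughout, with a log2 change of 0.00 (95% interval -0.47 to 0.48, adjusted p = 0.991), the only value of the 50 that was not negative.

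All 5 multifunctional nucleolar proteins fell. Npm1, a chaperone of ribosomal proteins and histones (chromosome 11, 33152287 to 33163206), was the most abundant of the 50 genes, at 906, 538, 390 and 412 FPKM in WT1 to WT4. In KO1 to KO4 it was at 83.1, 106, 78.8 and 107 FPKM. Every Nynrin-KO library was far below the lowest WT library, with a mean of 93.6 ± 14.8 FPKM against 562 ± 239 FPKM in WT (SD, n = 4). By limma the log2 change was -2.50 (SE 0.29, adjusted p = 0.0015). Npm1 alone made up 36.8% of the summed WT level of the 50 genes and 21.1% of the Nynrin-KO level. Ncl, the RNA-binding protein nucleolin (chromosome 1, 86344719 to 86359400), was at 101, 49.3, 57.3 and 50.6 FPKM in WT and 16.2, 18.1, 12.1 and 18.6 FPKM in Nynrin-KO. WT1 stood well above the other WT libraries, and the lowest WT value was still above every Nynrin-KO value (log2 change -1.88, SE 0.26, adjusted p = 0.00217). The snoRNP chaperone gene Nolc1, the MYB-binding protein gene Mybbp1a and the helicase gene Ddx21 fell to 25.9%, 30% and 44.4% of the WT mean. Ddx21 was called in 17 of 24 alternatives, and not without WT1 (adjusted p = 0.0641) or without KO1 (0.0536).

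**Figure D3:**
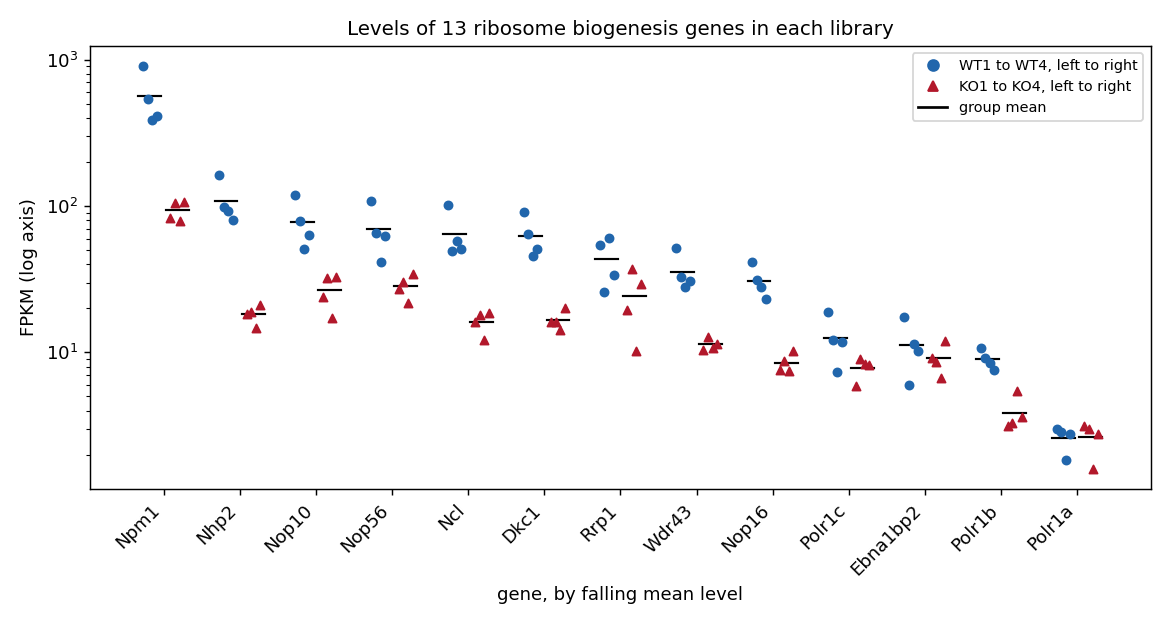
FPKM of 13 of the genes (horizontal axis, by falling mean level) on a log axis, with a circle for each WT library, a triangle for each Nynrin-KO library and a line for the group mean. For Npm1, Nhp2, Nop10, Nop56, Ncl, Dkc1, Wdr43, Nop16 and Polr1b the groups do not overlap, while for Rrp1, Polr1c, Ebna1bp2 and Polr1a they do.

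The protein genes of both classes of snoRNP all fell, though some of these calls were lost in alternatives. Box C/D snoRNPs place methyl groups on ribosomal RNA, with fibrillarin (Fbl) as the enzyme and Nop56 and Nop58 as its scaffold. Nop56 (chromosome 2, 130274430 to 130279313) was at 108, 65.1, 41.6 and 62.9 FPKM in WT and 27.2, 30.5, 21.9 and 34.3 FPKM in Nynrin-KO. Nop58 was at 18.5, 12.4, 6.75 and 9.13 FPKM in WT and 3.74, 2.54, 3.28 and 3.54 FPKM in Nynrin-KO. Fbl was at 13.9, 7.85, 14.8 and 9.05 FPKM in WT and 3.63, 6.44, 4.31 and 4.54 FPKM in Nynrin-KO. In these 3 genes WT and Nynrin-KO did not overlap. The log2 changes were -1.19 (SE 0.29), -1.49 (SE 0.27) and -1.09 (SE 0.24) for Nop56, Nop58 and Fbl, with limma adjusted p = 0.0158, 0.00516 and 0.0108. In the libraries high in Gm10800 none of the 3 was called (limma adjusted p = 0.055, 0.059 and 0.066). Nop56 and Fbl were not called without WT1 and KO1 (0.0656 and 0.0752), nor Nop56 with no filter (0.0519).

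Box H/ACA snoRNPs convert uridine to pseudouridine, and their core proteins also stabilize telomerase RNA. Nhp2, an RNA-binding core protein (chromosome 11, 51619735 to 51623714), was at 164, 98.3, 91.9 and 80.2 FPKM in WT and 18.4, 18.7, 14.7 and 21.2 FPKM in Nynrin-KO. The Nynrin-KO mean was 16.8% of the WT mean (log2 change -2.46, SE 0.25, limma adjusted p = 0.00105), next to Npm1 the furthest fall among the 50. Dkc1, the pseudouridine synthase that is mutated in dyskeratosis congenita (chromosome X, 75095854 to 75109777), was at 91.3, 64.0, 45.6 and 50.5 FPKM in WT and 16.1, 16.1, 14.3 and 20.2 FPKM in Nynrin-KO. Its groups did not overlap (log2 change -1.82, SE 0.24, limma adjusted p = 0.00194). Dkc1 is X-linked, and sex differs between most libraries of the groups. Nop10, the smallest core protein, was at 118, 79.4, 50.5 and 63.2 FPKM in WT and 24.1, 32.1, 17.3 and 32.8 FPKM in Nynrin-KO (log2 change -1.49, SE 0.31, adjusted p = 0.00823). Gar1 was at a far lower level, with means of 4.22 and 1.66 FPKM, and fell too (log2 change -0.99, SE 0.24, adjusted p = 0.0156). The Gar1 value in KO3 rested on 2 reads. Gar1 was called in 18 of 23 alternatives. It was not called in the libraries high in Gm10800 (limma adjusted p = 0.129), without WT1 and KO1 (0.0584) or with no filter (0.0695).

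Some of the 50 genes also hold snoRNAs within their annotated bounds, which was not used to choose them. Several of these overlap annotated exons of the host, among them Snora75 in Ncl (133 bases). By GENCODE M21, 8 of the genes (Nop58, Nop56, Dkc1, Ppan, Gnl3, Ncl, Wdr43 and Tsr1) hold 23 annotated snoRNAs on their own strand, among them Snord70 in Nop58 and Snord82 in Ncl. All 8 of these host genes fell, beside 37 of the 50 genes and 13.8% of all genes tested. Whether host genes differ from the other genes of the set was not tested. The snoRNAs themselves were not measured here.

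Of 15 small-subunit factors 10 fell and 5 did not pass. Wdr43, a subunit of the complex that first binds the nascent precursor (chromosome 17, 71615895 to 71659031), was the most abundant, at 51.3, 32.8, 27.9 and 30.5 FPKM in WT and 10.46, 12.7, 10.8 and 11.5 FPKM in Nynrin-KO. The Nynrin-KO libraries lay close to each other, all far below WT (log2 change -1.53, SE 0.21, limma adjusted p = 0.00209). Ltv1, a late assembly factor, was at 32.2, 27.6, 19.7 and 21.04 FPKM in WT and 9.0001, 12.4, 9.53 and 13.5 FPKM in Nynrin-KO (log2 change -1.10, SE 0.22, adjusted p = 0.00677). Tsr1, a GTPase-like late factor, was at 10.3, 5.003, 6.77 and 4.76 FPKM in WT and 2.12, 1.91, 0.969 and 2.35 FPKM in Nynrin-KO (log2 change -1.42, SE 0.26, adjusted p = 0.00552). Rrp9, the protein specific to the U3 snoRNP, Utp4, and Nob1, the nuclease that makes the final cut at the end of the small-subunit RNA, fell to 38%, 42.8% and 39.1% of the WT mean. Rrp12, Noc4l, Bysl and Nop14 fell to 39.7%, 44.3%, 49.4% and 61%; Nop14 had the smallest fall that passed (log2 change -0.55, adjusted p = 0.0273) and was called in 12 of 23 alternatives, and not without WT1, WT4, KO1, KO2 or KO4 (0.0509 to 0.0798). Bysl was called in 17 of 23 alternatives, and not without WT1 (adjusted p = 0.0534).

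The 5 small-subunit factors that did not pass all had a negative change. All were at low level, as were Rrp12, Nop14, Tsr1, Bysl and Rrp9, which passed. Wdr75, Utp15 and Heatr1 belong, with Wdr43 and Utp4, to the subcomplex that links transcription and processing of the precursor. Wdr75 was at 8.88, 7.27, 4.26 and 7.97 FPKM in WT and 3.79, 3.60, 5.77 and 3.39 FPKM in Nynrin-KO. KO3 alone lay above the lowest WT library, and without KO3 the gene passed (adjusted p = 0.0342, against 0.0725 with all libraries). Utp15 was at 7.75, 5.76, 4.08 and 4.10 FPKM in WT and 2.82, 3.83, 3.45 and 4.38 FPKM in Nynrin-KO, and Heatr1 at 4.24, 4.21, 2.18 and 3.41 against 2.18, 2.81, 1.21 and 2.86 FPKM. For both the groups overlapped (log2 changes -0.45 and -0.47, adjusted p = 0.152 and 0.183). Utp20, a large scaffold protein, was the lowest of the 50 by its mean over all libraries, at 2.11, 1.35, 1.62 and 1.64 FPKM in WT and 0.945, 0.580, 0.931 and 1.05 FPKM in Nynrin-KO. Its groups did not overlap, yet it did not pass (log2 change -0.51, 95% interval -0.97 to -0.05, adjusted p = 0.0916). Dimt1, which methylates the small-subunit RNA, was at 3.88, 3.64, 2.75 and 2.90 FPKM in WT and 1.55, 2.23, 4.26 and 2.65 FPKM in Nynrin-KO (adjusted p = 0.432). KO3 was the highest of all 8 libraries for Dimt1 and the other 3 Nynrin-KO libraries were below WT.

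Of 19 large-subunit factors 13 fell and 6 did not pass. Grwd1, a histone and ribosomal protein chaperone (chromosome 7, 45825223 to 45830944), was at 14.2, 8.09, 9.55 and 10.3 FPKM in WT and 3.05, 2.97, 1.11 and 2.40 FPKM in Nynrin-KO. It fell furthest of these factors (log2 change -1.79, SE 0.25, limma adjusted p = 0.00217), with 4 reads behind the KO3 value. Nop16, a known MYC target (chromosome 13, 54584185 to 54590090), was at 41.4, 31.1, 28.1 and 23.3 FPKM in WT and 7.63, 8.72, 7.48 and 10.1 FPKM in Nynrin-KO, and fell with a tighter error (log2 change -1.73, SE 0.21, adjusted p = 0.00152). Wdr74 was at 39.7, 23.5, 23.3 and 25.4 FPKM in WT and 9.29, 15.8, 9.55 and 15.1 FPKM in Nynrin-KO (log2 change -1.11, SE 0.25, adjusted p = 0.0121). Bop1, Pes1 and Wdr12, which form 1 complex needed for processing of large-subunit RNA, all fell, to 34.4%, 41.2% and 37.4% of the WT mean. Bop1 and Pes1 were not called with no filter (limma adjusted p = 0.0517 and 0.0515) or without WT1 and KO1 (0.0817 and 0.0864). Wdr12 was not called in the libraries high in Gm10800 (0.0806). The Bop1 value in KO3 rested on 9 reads. The RNA methyltransferase genes Nop2 and Ftsj3, Gnl3, which encodes the GTP-binding protein nucleostemin, and Ppan, Rrs1, Nip7 and the helicase gene Ddx18 fell to between 28.6% and 52.2%. Nip7 was called in 16 of 24 alternatives, and not without WT2, KO2 or KO4 (adjusted p = 0.0563, 0.0533 and 0.0534), and Ddx18 was not called without KO1 (0.0615).

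The 6 large-subunit factors that did not pass all had a negative change. Rrp1 was the most abundant large-subunit factor over all libraries, at 54.5, 25.9, 60.9 and 33.9 FPKM in WT and 19.6, 37.3, 10.2 and 29.4 FPKM in Nynrin-KO. Its spread was wide in both groups, which overlapped (log2 change -0.90, SE 0.41, limma adjusted p = 0.139). Brix1 was at 24.6, 20.6, 7.84 and 15.6 FPKM in WT and 8.43, 8.76, 8.63 and 9.64 FPKM in Nynrin-KO. WT3 lay below all 4 Nynrin-KO libraries and the other WT libraries above them, and without WT3 the gene passed (adjusted p = 0.00625, against 0.0866 with all libraries). Rrp1b was at 7.73, 5.94, 2.93 and 5.03 FPKM in WT and 3.77, 2.66, 3.03 and 3.82 FPKM in Nynrin-KO, with WT3 alone among the WT libraries within the Nynrin-KO range (adjusted p = 0.147, and 0.0242 without WT3). Without WT3 Polr1c and Wdr75 passed too (adjusted p = 0.0359 and 0.0167), and 41 of the 50 fell, beside 15.8% of all genes. Noc3l was at 1.201, 2.31, 1.67 and 1.502 FPKM in WT and 0.981, 0.763, 1.38 and 0.797 FPKM in Nynrin-KO (adjusted p = 0.178). Its partner Noc2l was at 5.03, 2.78, 2.60 and 3.51 FPKM in WT and 1.90, 3.52, 2.04 and 3.35 FPKM in Nynrin-KO (adjusted p = 0.419). Ebna1bp2 was at 17.3, 5.97, 11.4 and 10.3 FPKM in WT and 9.19, 8.64, 6.66 and 11.9 FPKM in Nynrin-KO (adjusted p = 0.614). For Noc2l and Ebna1bp2 the 95% intervals of the log2 change, -0.80 to 0.26 and -0.88 to 0.44, include no change and leave room for a fall of the size seen in Nip7.

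**Figure D4:**
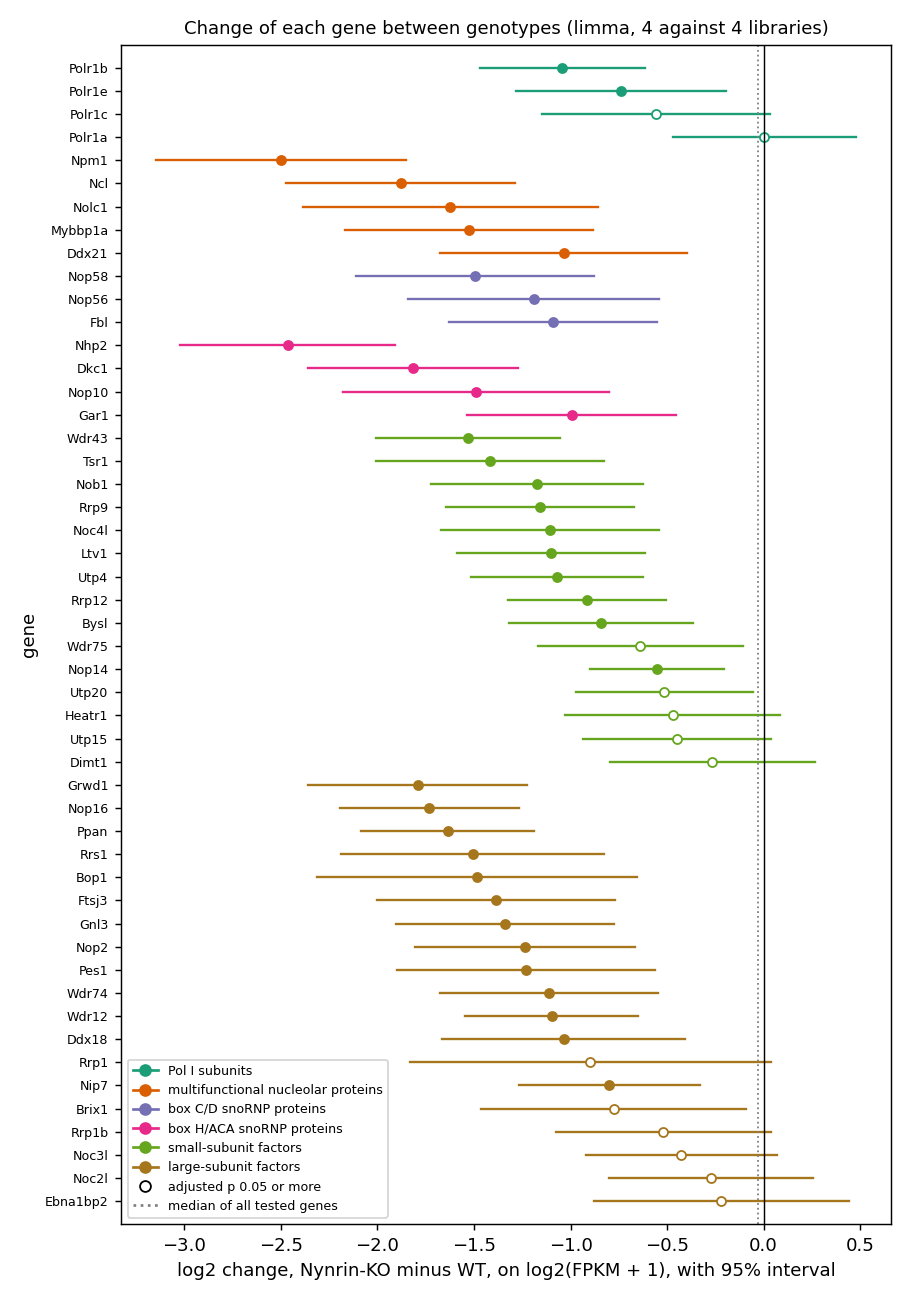
Log2 change of each of the 50 genes, Nynrin-KO minus WT, with its 95% interval from limma, coloured by role. Filled points passed an adjusted p under 0.05 and open points did not, and the dotted line is the median of all genes tested (-0.03). The values run from -2.50 for Npm1 to 0.00 for Polr1a.

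By role, the median log2 change was -1.65 for the 4 H/ACA proteins and -1.62 for the 5 multifunctional nucleolar proteins, -1.19 for the 3 C/D proteins, -1.11 for the 19 large-subunit factors, -0.92 for the 15 small-subunit factors and -0.65 for the 4 polymerase subunits. Differences between these role groups were not tested. Genes at low level tended to be those that did not pass: the median WT mean was 5.41 FPKM for the 13 uncalled genes and 17.4 FPKM for the 37 that fell, and the log2(FPKM + 1) scale understates the change of low genes. The order of levels within the set was much the same in both groups (Spearman's rho 0.934 between WT and Nynrin-KO means across the 50 genes, which are not independent replicates). WT libraries varied more than Nynrin-KO libraries in 35 of the 50 genes, with a median SD of 0.38 against 0.28 on the log2 scale. WT1 was the highest WT library in 46 genes and WT3 the lowest in 32, while KO4 was the highest Nynrin-KO library in 26 and KO3 the lowest in 24.

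**Figure D5:**
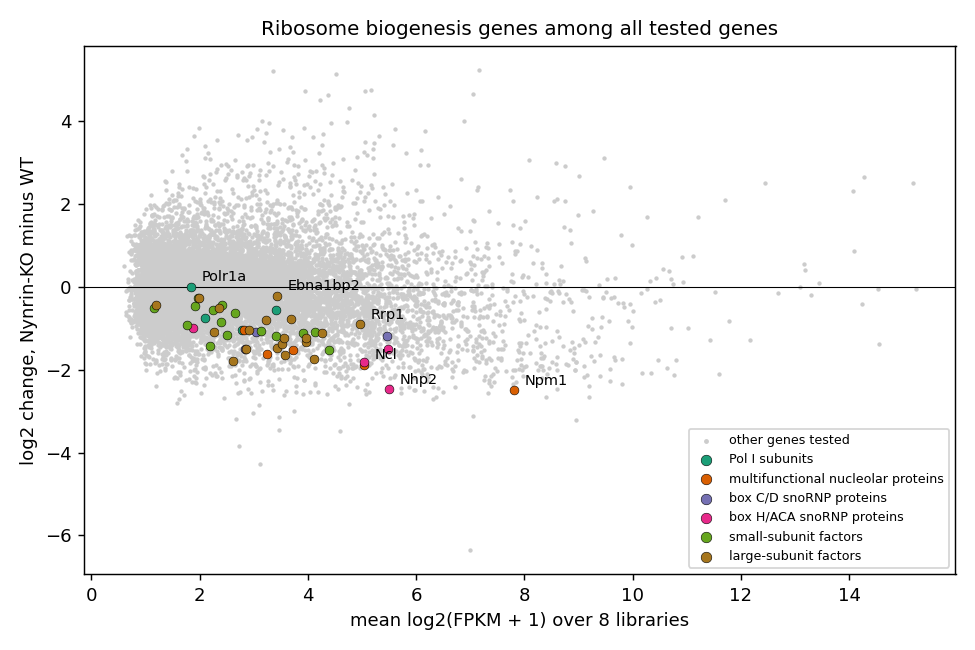
Log2 change, Nynrin-KO minus WT (vertical axis), against mean log2(FPKM + 1) over the 8 libraries (horizontal axis) for all 12524 genes tested, in grey, with the 50 genes coloured by role. The 50 genes lie at or below 0 across their whole range of levels, from Utp20 to Npm1.

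The number of genes called moved with the libraries in the fit, while the direction of the median did not. Without WT1 and KO1, 24 of the 50 fell, all among the 37, beside 7.15% of all genes, and all 50 had a negative change with a median of -0.90. Within the 5 libraries high in Gm10800 (WT2, WT3, WT4, KO1 and KO3) 24 of 49 that passed the filter fell, beside 6.42% of all genes, with a median of -1.16 and all 49 negative. Both alternatives have fewer libraries. Leaving out 1 library at a time gave 33 to 41 that fell and 0 that rose, with 33 without WT1 and 33 without KO1, beside 10.2% and 11.1% of all genes. At an adjusted p under 0.01 with all libraries, 24 of the 50 fell, beside 6.25% of all genes. The fit on recovered reads called 43, beside 18.7% of all genes that fell and 18.8% that rose.

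Other genes of the same pathway, a list by role that was drawn up with earlier results of these data known, also held more falls than rises. Of 134 such genes 131 were tested, and 47 fell, 1 rose and 83 did not pass, with a median log2 change of -0.52. That is 35.9% of those tested, against 74% of the 50 and 13.8% of all genes; the difference between the lists was not tested. In the rest of the polymerase I machinery 3 of 18 fell, among them the polymerase subunit gene Cd3eap (log2 change -1.23, limma adjusted p = 0.0122) and Taf1d, a subunit of the promoter selectivity factor (-0.84, adjusted p = 0.0136). Of 52 tested small-subunit and snoRNP factors 21 fell, of which the smallest p were those of Rcl1 (-1.73, adjusted p = 0.0015) and Snu13, which binds the C/D motif of snoRNAs (-1.55, adjusted p = 0.00247). The single gene that rose was Riok3, an atypical kinase that acts on late small-subunit precursors, from between 17.5 and 23.4 FPKM in WT to between 29.4 and 39.0 FPKM in Nynrin-KO (log2 change 0.70, SE 0.18, adjusted p = 0.0187), and it was not called without KO1 (adjusted p = 0.0535). Of 50 tested large-subunit factors 17 fell, of which Isg20l2 (-1.04) and Rsl1d1 (-1.64) had the smallest p, and of 11 exosome and nuclease genes 6 fell, among them Exosc2 (-1.14) and Exosc5 (-1.31). Myc was at 102, 51.9, 54.5 and 49.1 FPKM in WT and at 22.0, 22.5, 13.1 and 17.6 FPKM in Nynrin-KO (log2 change -1.69, SE 0.28, adjusted p = 0.00373). Of the MYC family Myc was the only gene of 8 tested that fell, while Max, its partner, and Mxd1 and Mxi1, which compete for Max, rose by 0.94, 2.41 and 0.59 on the log2 scale. The Mxi1 call was lost without WT1, WT3, WT4, KO1, KO2 or KO4 (adjusted p = 0.0566 to 0.0854), with quantile or median scaling (0.0745 and 0.0652), with the replicate block (0.0506) and with no filter (0.195). The Max call was lost with no filter (0.0786), without WT1 and KO1 together (0.0792) and in the libraries high in Gm10800 (0.196), where Mxd1 was not called either (0.0561). With the neutrophil covariate none of Myc, Max, Mxd1 and Mxi1 was called (0.218, 0.286, 0.255 and 0.39).

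Processed copies and overlapping genes bear on how exact single values are. For 36 of the 50 genes no annotated pseudogene matched the longest transcript at 90% identity or more over at least 200 bases and at least 50% of the pseudogene's own length, and 24 of these 36 fell, with a median log2 change of -1.08. Npm1 has 8 such copies, summed at 148, 104, 77.8 and 62.3 FPKM in WT1 to WT4 and at 13.6, 18.7, 30.6 and 17.3 FPKM in KO1 to KO4. Of the 5 copies tested, Gm14681, Gm6477 and Gm9118 fell, by 1.96, 2.38 and 2.49 on the log2 scale. The sources used here do not say how reads that match several places were counted, so the level of Npm1 itself is uncertain. Exons of Tsr1, Dimt1, Noc2l and Bysl overlap those of Srr, Kif2a, Samd11 and Ccnd3 on the opposite strand by 1240, 1229, 598 and 361 bases, and the sources do not say whether counting used strand.

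Since most of the genes moved together, the 250 bases before their start sites were searched for 4 motifs on both strands (RefSeq promoters, GRCm38.p6, 45 of the 50 genes matched). The MYC-type E-box CACGTG was in 2.22% of the 45 genes, against 10.3% of tested genes and 6.86% of all genes with a promoter. The ETS core CCGGAAG was in 26.7% of the 45, against 17.4% and 7.83%, the palindromic NRF1 motif in 8.89%, against 10.1% and 4.23%, and the CCAAT box CCAAT in 24.4%, against 41.3% and 37.5%. A match is a description of letters in this window, and no match says only that they are not there. The promoters of 3 genes are shown because they span the range of the data: Nhp2, the furthest fall among genes with a promoter entry, Nop2, the only one of the 45 with CACGTG, and Polr1a, whose change was nearest to 0. Capitals mark every match to any of the 4 motifs. In Nhp2 (chr11:51619523-51619772, plus strand) they are CCAAT on 1 strand or the other, 2 of the 3 matches overlapping, and CCGGAAG close to the start. In Nop2 (chr6:125131633-125131882, plus strand) they are CACGTG, which begins 60 bases before the start, and CCGGAAG. In Polr1a (chr6:71908803-71909052, plus strand) the single match is CCAAT.
Nhp2: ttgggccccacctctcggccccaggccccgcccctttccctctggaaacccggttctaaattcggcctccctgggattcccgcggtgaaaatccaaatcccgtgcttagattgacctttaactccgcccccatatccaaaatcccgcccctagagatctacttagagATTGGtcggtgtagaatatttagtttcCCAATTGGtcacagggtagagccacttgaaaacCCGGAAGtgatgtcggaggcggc
Nop2: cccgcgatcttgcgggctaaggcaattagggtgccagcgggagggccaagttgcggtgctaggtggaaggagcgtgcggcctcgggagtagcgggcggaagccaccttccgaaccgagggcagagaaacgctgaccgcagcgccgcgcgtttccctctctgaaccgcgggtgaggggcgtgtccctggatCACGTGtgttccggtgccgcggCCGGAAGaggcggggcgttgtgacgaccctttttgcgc
Polr1a: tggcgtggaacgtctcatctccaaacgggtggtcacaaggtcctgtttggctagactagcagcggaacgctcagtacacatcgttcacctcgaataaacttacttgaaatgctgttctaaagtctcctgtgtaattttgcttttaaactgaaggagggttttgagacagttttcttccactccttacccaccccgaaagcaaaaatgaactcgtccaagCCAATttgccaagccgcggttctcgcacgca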

How the data were processed

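RNA-seq of 4 WT and 4 Nynrin-KO libraries was analysed from 1 table of FPKM values that the authors deposited, with 48500 genes. Per the labels' protocols, libraries were made with the Smart-Seq V4 kit. The submitters' processing notes name Bowtie 0.12.9, Cufflinks 2.1.1, HTSeq and mm10, without their order. The sources used here do not give the multimapping rule or strand use.

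The test was limma (version 3.58.1, in R 4.3.3), run on log2(FPKM + 1) for genes reaching 1 FPKM in 4 or more libraries of 8, with variance trend and robust estimation, two-sided and Benjamini-Hochberg adjusted over 12524 genes at 0.05, with no covariates. Fold changes are on that log2 scale. Whole reads were recovered from the deposited FPKM and the longest GENCODE M21 transcript, within 0.1 of a whole number for 99.4% to 99.5% of the values checked. They gave the depths and were used in a further fit (limma's voom with sample quality weights), which called 2334 genes lower and 2357 higher. Intervals cover the spread between libraries only. Pseudogene copies were found with blastn 2.17.0.

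Genes named in full are, per role, the 2 highest in level, the 2 with the largest change and all that did not pass. In the other pathway lists they are the 2 with the smallest p in each direction. The 50 genes and all lists were chosen with earlier results of these data known. Alternatives changed the pseudocount, filter, scaling, limma options, covariates and libraries.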

Additional observations from a re-analysis of the deposited data

Results flagged for a closer look

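In groups of 4 libraries, 1 library stood apart from the other 3 by more than Dixon's 95% limit for the gap over the range in 6 of the 100 groups examined, where chance gives about 5. WT1 was the high library for Ncl (101.4 FPKM), Wdr74 (39.71 FPKM), Nob1 (24.95 FPKM) and Rrs1 (15.91 FPKM). KO3, the library with the fewest reads, was the low one for Bysl (1.704 FPKM) and the high one for Wdr75 (5.769 FPKM). The other 6 libraries held no such value.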

How the results depend on the processing

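The count of the 50 genes that fell was 37. It stayed within 1.5 times that under other pseudocounts, filters, quantile or median scaling and limma options. With no filter it was 27, and with a mean of at least 5 FPKM it was 30 of 35 tested. The share of all genes under these filters is not given, so both counts show only how the calls moved with the filter. The count was 43 on recovered reads and 36 with scaling outside neutrophil genes and Gm10800, which was chosen after seeing the data. It was 24 without WT1 and KO1, 24 in the libraries high in Gm10800, 24 at an adjusted p under 0.01 and 0 with the neutrophil level as a covariate, where the median log2 change was -0.68. Leaving out 1 library gave 33 to 41. None of the 50 rose under any of these. Of the other pathway genes, 47 fell and 1 rose, beside 13.8% and 14% of all genes. Without WT1 and KO1 these were 18 and 0, beside 7.15% of all genes that fell. They were 19 and 0 in the libraries high in Gm10800 (beside 6.42%) and 20 and 0 at an adjusted p under 0.01 (beside 6.25%). With the neutrophil covariate they were 0 and 0. With no filter 23 fell and 0 rose, and with Gm10800 as a covariate 79 fell. Leaving out 1 library gave 32 to 54 that fell and 0 to 1 that rose. The share of all genes is not given beside these last counts, so they are not read as a result about the pathway. The causes were not tested.

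Genes whose sign turned had no call. With the neutrophil covariate Dimt1 was at 0.0716, Ebna1bp2 at 0.31, Noc2l at 0.17, Polr1c at 0.0649 and Utp15 at 0.0743. Ebna1bp2 was also at 0.0822 with array weights and 0.10 on recovered reads, and between -0.46 and 0.0039 without 1 library. Polr1a, at 0.00, was at -0.0003 with a pseudocount of 0.1, -0.0497 with quantile and -0.0536 with median scaling, -0.015 without WT1 and KO1, -0.0661 in the libraries high in Gm10800, -0.12 with Gm10800 as a covariate and between -0.11 and 0.16 without 1 library, below 0 without WT3, KO1, KO2 or KO4.

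WT and Nynrin-KO share replicate numbers. Correlations of same-numbered libraries' deviations were -0.213, -0.389, 0.329 and 0.00756. These values show no common pairing by number, but so few cannot exclude one. With the replicate number as a block 36 of the 50 fell (Nop14 no longer passed), beside 11.8% of all genes, as did 36 of the other pathway genes. The edgeR fit planned for a table of deposited counts was not run. The recovered reads were tested with voom. Depth limits low genes most: in KO3, 17 of the 50 had under 20 reads.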
